A study of Mus musculus with 9 samples.

Results

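Met, Hgf, Mst1r, Axl, Tyro3 and Gas6, which encode 4 receptor tyrosine kinases and 2 ligands, were followed across primary mammary tumours of the mouse lines 67NR, 66cl4 and 4T1. The members are the 6 genes by name, and every probe set that the array annotation gave to 1 of them alone was taken. This gave 12 of 45037 probe sets, and the 6 genes stand among 18193 genes on the array, of which 13409, all 6 included, were bright enough to be tested. Female BALB/c mice, 7 to 9 weeks old per the labels, each received 1000000 viable cells of 67NR/CMVLUC, 66cl4/CMVLUC or 4T1/CMVLUC in a mammary gland. Primary tumours were taken on day 15, and RNA of laser-captured tumour tissue was hybridised to 1 array per mouse, 3 mice per line. All 3 lines carried the addition CMVLUC, which the labels do not spell out, and there was no tissue without tumour. The series asks about epithelial to mesenchymal transition in metastasis, and of these lines 67NR is known as the one that forms primary tumours without spreading.

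MET is the receptor of hepatocyte growth factor (HGF), a ligand that is secreted as an inactive precursor and must be cut by a serine protease before it can signal. RON, the product of Mst1r, is the close relative of MET and binds macrophage-stimulating protein, which is encoded by Mst1 and activated in the same way. AXL and TYRO3 belong, with MERTK, to the TAM family, whose bridging ligands GAS6 and protein S need a vitamin K-dependent modification to bind exposed phosphatidylserine. In mammary tumours MET and AXL are known for their part in scattering, invasion and survival of cells, and TAM receptors on macrophages for clearing dead cells and damping inflammation.

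The RefSeq promoter table (GRCm38.p6) held windows for 6 of 6 genes, 8 windows in all. The 250 bases before an annotated start are shown for Met, Axl and Gas6, because these 3 genes differed among the lines (values follow). Capitals mark matches, on either strand, to 3 short motifs: TGANTCA, bound by AP-1 factors, GGAATG, bound by TEAD factors, and the GC box GGGCGG. No capital stretch belongs to 2 motifs at once.
Met, chr6:17463707-17463956, plus strand: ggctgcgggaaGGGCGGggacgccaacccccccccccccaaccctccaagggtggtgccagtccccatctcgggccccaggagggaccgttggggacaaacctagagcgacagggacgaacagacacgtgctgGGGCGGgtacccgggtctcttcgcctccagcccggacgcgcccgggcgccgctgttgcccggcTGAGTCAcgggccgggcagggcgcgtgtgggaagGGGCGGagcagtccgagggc
Axl, chr7:25788734-25788983, minus strand: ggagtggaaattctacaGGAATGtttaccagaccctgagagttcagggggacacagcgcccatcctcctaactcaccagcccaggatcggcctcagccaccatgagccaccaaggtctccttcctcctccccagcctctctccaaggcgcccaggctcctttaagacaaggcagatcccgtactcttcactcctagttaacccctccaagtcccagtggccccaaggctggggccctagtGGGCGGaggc
Gas6, chr8:13494536-13494785, minus strand: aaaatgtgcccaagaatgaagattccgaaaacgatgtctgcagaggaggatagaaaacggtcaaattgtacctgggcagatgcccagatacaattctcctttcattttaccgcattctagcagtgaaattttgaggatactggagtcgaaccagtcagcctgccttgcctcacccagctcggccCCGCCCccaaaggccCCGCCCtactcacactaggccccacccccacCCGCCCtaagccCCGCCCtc
The Met window held 1 AP-1 motif and 3 GC boxes, the Axl window 1 TEAD motif and 1 GC box, and the Gas6 window 4 GC boxes. Among 32817 such windows of the table, 6.75% held the AP-1 motif, 12.6% the TEAD motif and 32.7% a GC box. These matches describe letters only, and the arrays carry no measurement of binding.

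Signals are log2 values deposited by the authors, and differences are on the same log2 scale, so that a difference of 1 is a doubling. A gene is called changed at a limma adjusted p under 0.05 over all genes tested. Levels of different genes were read by different probes and are not compared with each other. Bacterial control probe sets reached 4.83 to 5.08 at most, depending on the array, and a gene at or below its array's highest control is described as not above background. The 9 arrays had medians of 5.51 to 5.58. Of 12 epithelial markers, 4 (Cdh1, Krt7, Cldn7 and Esrp1) were not above background on any 67NR or 66cl4 array and 0 were in 4T1, while Epcam was above it on every array. Krt8, a keratin gene, stood at 6.74 ± 0.18 in the 67NR group and 13.01 ± 0.20 in the 66cl4 group (SD, n = 3). Captured tissue can hold stromal and immune cells besides tumour cells, and in such bulk RNA fewer cells of a type and less RNA per cell cannot be told apart.

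Among the 6 members, Met was highest in 67NR tumours, Axl was highest in 66cl4 tumours, and Gas6 was lowest in 4T1 tumours. In 4T1 against 67NR, 0 members rose and 2 fell (Met and Gas6), where 19.4% of all genes tested rose, 20.5% fell and 39.9% changed either way. In 66cl4 against 67NR, 1 rose (Axl) and 1 fell (Met), against 20% and 16% of all genes, or 36.1% either way. In 4T1 against 66cl4, 1 rose (Tyro3) and 2 fell (Axl and Gas6), against 17.9% and 23.4%, or 41.3% either way. The last count was the least firm, since it was 1 without 66cl4 replicate 2, 66cl4 replicate 3, 4T1 replicate 2 or 4T1 replicate 3. By the moderated F-test over all 3 lines, 3 of 6 members differed (Met, Axl and Gas6), against 56.6% of all genes. The share of members that changed was therefore near that of the array as a whole. The 3 comparisons share arrays pairwise.

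**Figure D1:**
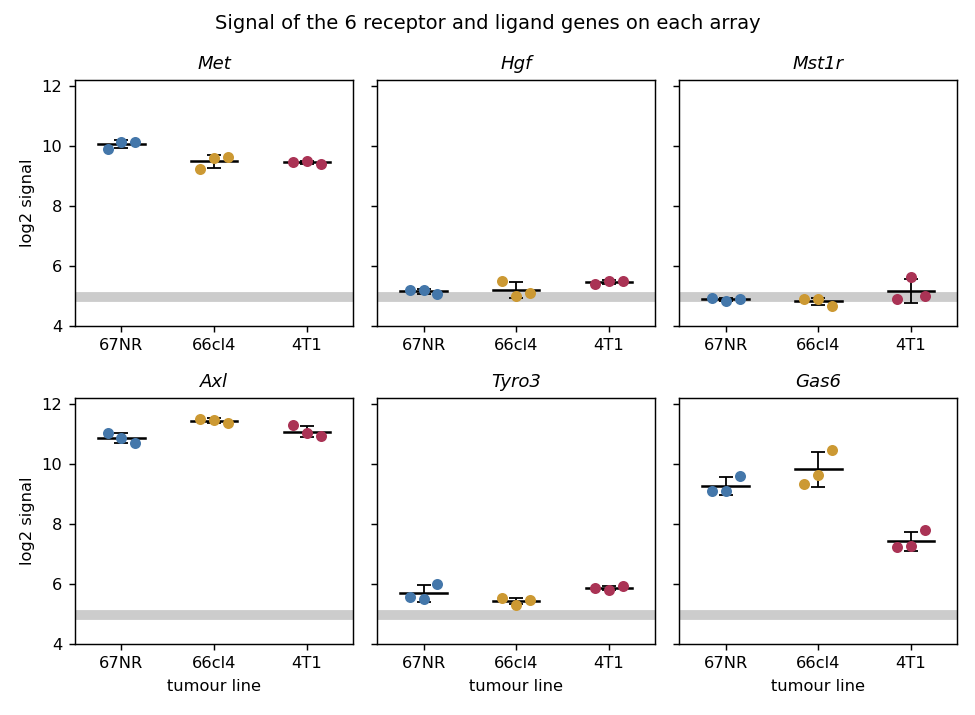
Log2 signal (y axis) of each member on each array by tumour line (x axis), with the mean (bar) and SD (whiskers) of 3 mice and the range of the per-array background as a grey band. Gas6 is between 7.23 and 7.79 in 4T1 and above 9 on all 6 other arrays, while Hgf and most Mst1r values lie near the band, with Mst1r from 4.67 to 5.63.

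Met, the HGF receptor, stood at 9.90, 10.12 and 10.13 in the 3 67NR tumours. The 66cl4 tumours had 9.23, 9.60 and 9.61, and the 4T1 tumours 9.47, 9.49 and 9.37. Every 67NR array was thus above every array of the other lines, and 66cl4 and 4T1 overlapped. The values did not overlap for 49.7% of all genes in 4T1 against 67NR and for 52.5% in 66cl4 against 67NR. Met was lower by -0.61 ± 0.13 in 4T1 (SE, n = 3 per line, limma adjusted p = 0.00392), which is 1.52-fold, and by -0.57 ± 0.13 in 66cl4 (adjusted p = 0.00662), which is 1.48-fold. Between 4T1 and 66cl4 the difference was -0.04 with a 95% interval of -0.32 to 0.25 (limma adjusted p = 0.837).

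The dimmer Met probe set gave 6.86, 7.29 and 7.25 in 67NR, 6.25, 6.49 and 6.94 in 66cl4 and 6.78, 6.34 and 6.49 in 4T1 tumours. Its differences had nearly the same size, -0.60 in 4T1 (limma adjusted p over probe sets = 0.0427) and -0.58 in 66cl4 (0.0565, which does not pass), where 32.8% and 27.8% of all probe sets changed. Between 4T1 and 66cl4 it differed by -0.02 (limma adjusted p = 0.947, with 33.2% of probe sets changed). Probe sets of 1 gene read the same RNA and are not separate evidence. The number in the name of the array file was higher for every 67NR array than for any other array, and the hybridization controls, spiked into every sample at fixed amounts, also differed. Their mean log2 signal ran from 10.87 to 11.47 in 67NR, 10.64 to 11.10 in 66cl4 and 10.30 to 10.72 in 4T1 arrays. The file number thus did not overlap between 67NR and either other line, nor the controls between 67NR and 4T1. In those comparisons a fit with the covariate cannot separate it from the line, and its differences are not corrected line effects. With the file number as a covariate Met differed by -0.25 in 4T1 (limma adjusted p = 0.32) and -0.34 in 66cl4 (0.0929), and with the hybridization controls by -0.31 in 4T1 (0.32) and -0.44 in 66cl4 (0.0355). Markers of other cell types also differed in these comparisons. Of 10 mast cell markers, 9 were lower in 4T1 and 10 in 66cl4 than in 67NR, and of 12 endothelial markers 9 and 11. Of all genes, 20.5% fell in 4T1 and 16% in 66cl4. In each line 1 endothelial marker and 0 mast cell markers were higher. Of 12 epithelial markers, 12 were higher in 4T1, with 1 higher and 1 lower in 66cl4. Of 12 fibroblast markers, 7 were higher and 4 lower in 4T1, and 5 higher and 3 lower in 66cl4. The summed signal of the mast cell list was 17445 to 24446 in 67NR, 622 to 765 in 66cl4 and 498 to 666 in 4T1 arrays, with Ms4a2 and Fcer1a at background in the last 2 lines. The part of these cell types in the Met difference was not tested.

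Hgf, the ligand of MET, was dim throughout, at 5.18, 5.20 and 5.05 in 67NR, 5.48, 5.00 and 5.08 in 66cl4 and 5.39, 5.50 and 5.50 in 4T1 tumours. One of the 67NR arrays was not above background, and the other Hgf probe sets were not above background on any array. The 4T1 and 67NR values did not overlap, but the difference of 0.32 ± 0.13 did not pass the test (SE, limma adjusted p = 0.0798, 95% interval 0.03 to 0.62). In 66cl4 against 67NR it was 0.05 (interval -0.25 to 0.34, limma adjusted p = 0.82) and in 4T1 against 66cl4 0.28 (interval -0.02 to 0.57, 0.124). Without 66cl4 replicate 1, the highest of its line, the last difference was 0.42 (0.0175).

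Mst1r, the RON gene, has 1 probe set, which was above background on 1 of 3 arrays in each line. Its values were 4.93, 4.81 and 4.88 in 67NR, 4.88, 4.88 and 4.67 in 66cl4 and 4.88, 5.63 and 5.00 in 4T1 tumours. The same value, 4.88, appeared on 4 of the 9 arrays, and 4T1 replicate 2 had the highest value. The differences were 0.29 ± 0.18 for 4T1 and -0.07 ± 0.18 for 66cl4 against 67NR (SE, limma adjusted p = 0.224 and 0.808). In 4T1 against 66cl4 the difference was 0.36 (95% interval -0.04 to 0.76, limma adjusted p = 0.136), and without 4T1 replicate 1 it was 0.50 (0.0485), without 4T1 replicate 2 0.13 (0.43). Without the latter array the difference from 67NR was 0.07 (limma adjusted p = 0.721). With most arrays at background, Mst1r changes of this size were at the limit of detection.

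Axl encodes a TAM receptor, and its signal was 11.03, 10.86 and 10.70 in 67NR, 11.51, 11.46 and 11.35 in 66cl4 and 11.29, 11.01 and 10.92 in 4T1 tumours. Every 66cl4 array exceeded every other array, by 0.06 over the highest 4T1 array and by 0.32 over the highest 67NR array. Axl was higher in 66cl4 than in 67NR by 0.57 ± 0.13 (SE over 3 mice per line, limma adjusted p = 0.00652), which is 1.49-fold. It was lower in 4T1 than in 66cl4 by -0.37 ± 0.13 (limma adjusted p = 0.0446), a comparison in which 50.9% of all genes did not overlap. That call ended, for example, with no filter on low values (0.0521) or with only the 2 lines in the fit (0.0594), and it held only without 4T1 replicate 1 among 6 fits that each left out 1 array (adjusted p = 0.0159 to 0.125). Axl in 4T1 against 67NR differed by 0.21 (95% interval -0.08 to 0.50, limma adjusted p = 0.231). The other Axl probe set lay between 2.85 and 3.31, below background on every array. In 66cl4 against 67NR, 5 of 12 fibroblast markers were higher and 3 lower, and 5 of 12 macrophage markers were higher and 1 lower. Of all genes, 20% rose and 16% fell there. The part of these cell types in the Axl difference was not tested.

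Tyro3, another TAM receptor, had 5.57, 5.48 and 6.01 in 67NR, 5.52, 5.31 and 5.44 in 66cl4 and 5.86, 5.78 and 5.91 in 4T1 tumours. All 4T1 arrays were above all 66cl4 arrays, and the 67NR arrays overlapped with both. Tyro3 was higher in 4T1 than in 66cl4 by 0.43 ± 0.14 (SE over 3 mice per line, limma adjusted p = 0.0352), and this call was lost in each of 6 fits without 1 of the arrays (adjusted p = 0.0529 to 0.112). It did not pass the test in 4T1 (0.16, limma adjusted p = 0.401) or 66cl4 (-0.26, 0.176) against 67NR. A second probe set lay at background on all 67NR (4.25 ± 0.30) and 66cl4 arrays (4.14 ± 0.21) and above it on 2 of 3 arrays of 4T1 (5.19 ± 0.32, SD, n = 3). With the mean of both probe sets, Tyro3 was higher in 4T1 than in 67NR by 0.55 (limma adjusted p = 0.0116) and than in 66cl4 by 0.74 (0.00246).

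Gas6, the ligand of the TAM receptors, showed the widest range of the 6 genes, 3.24 over the 9 arrays. Its signal was 9.10, 9.09 and 9.60 in 67NR, 9.33, 9.64 and 10.46 in 66cl4 and 7.23, 7.26 and 7.79 in 4T1 tumours. All 4T1 arrays were below all others, by at least 1.30, while 67NR and 66cl4 overlapped. Gas6 was lower in 4T1 than in 67NR by -1.84 ± 0.28 (SE over 3 mice per line, limma adjusted p = 0.000676), a 3.57-fold difference, and lower than in 66cl4 by -2.39 ± 0.28 (limma adjusted p = 0.000134), a 5.23-fold difference. In 66cl4 against 67NR it differed by 0.55 with an interval of -0.08 to 1.18 (limma adjusted p = 0.16). With the file number or the hybridization controls as a covariate, the call against 67NR ended (-1.49, limma adjusted p = 0.0685, and -1.16, 0.0995), while that against 66cl4 did not (-2.27, 0.000922, and -2.01, 0.002). The other Gas6 probe set was above background on 1 array of 9, and averaging both reduced the difference to -0.91 in 4T1 against 67NR and -1.33 against 66cl4.

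**Figure D2:**
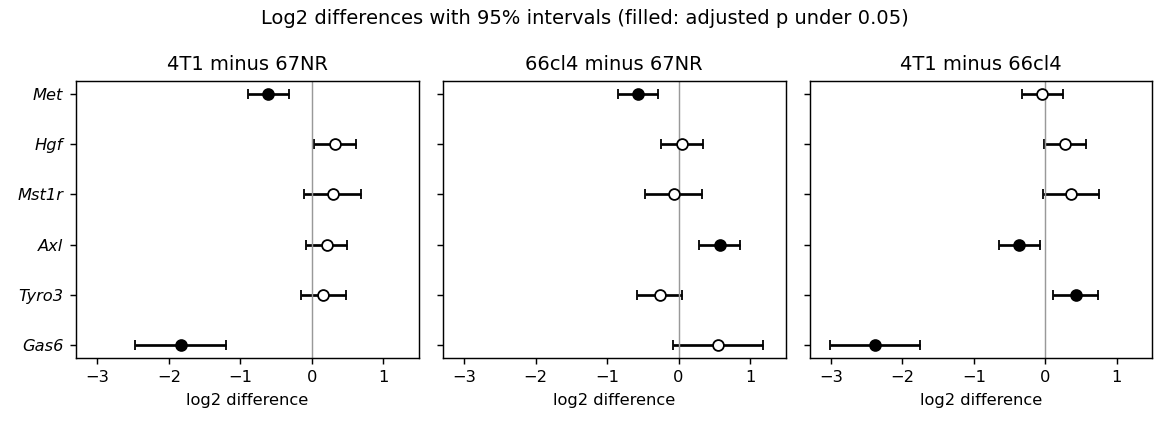
Log2 difference (x axis) of each member (y axis) in each pair of tumour lines with its 95% interval from the limma fit over 3 mice per line, filled where the adjusted p is under 0.05. Gas6 lies at -1.84 and -2.39 in both comparisons with 4T1, whereas every called difference of Met, Axl and Tyro3 is between -0.61 and 0.57.

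Markers of macrophages, cells that express GAS6 and MERTK, moved with Gas6. Of 12 macrophage and monocyte markers, 10 were lower and 0 higher in 4T1 than in 67NR (median -0.92 against -0.03 over all genes), 11 lower and 0 higher in 4T1 than in 66cl4 (median -1.44 against -0.03), and 5 higher and 1 lower in 66cl4 than in 67NR (median 0.37 against 0.01). Their summed linear signal was 45390 to 50450 in 67NR, 53002 to 66496 in 66cl4 and 21697 to 25519 in 4T1 arrays. No marker of the list was at background on every array of a line, but Cd163 was at background on 4T1 replicate 1 (4.33). Csf1r, the receptor of the macrophage growth factor, was lower in 4T1 than in 67NR by -1.25 ± 0.17 (SE, limma adjusted p = 0.0003). Of 12 fibroblast markers, 7 were higher and 4 lower in 4T1 than in 67NR, with Pdgfra lower by -1.65 ± 0.22 (0.000285) but the collagen gene Col1a1 higher by 3.93 ± 0.42 (7.37e-05, chosen after its value was seen), and 9 of 12 endothelial markers were lower and 1 higher, with Pecam1 lower by -1.54 ± 0.20 (0.000255). The summed signal of the fibroblast list was 16455 to 18732 in 67NR, 12779 to 19216 in 66cl4 and 22598 to 52841 in 4T1 arrays, that of the endothelial list 5392 to 6943, 1665 to 1983 and 2787 to 3419. The part of these cell types in the Gas6 difference was not tested.

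The genes with the profile most like that of Gas6 were Maf, Stard8 and Mrc1. Likeness was the root mean square difference of the centred log2 values over 9 arrays, which fall into 3 lines. It was 0.18 for Maf, 0.19 for Stard8 and 0.21 for Mrc1, where Gas6 itself varied about its mean by 1.08. Maf, a transcription factor gene, had means of 10.85, 11.28 and 9.22 in 67NR, 66cl4 and 4T1, and Stard8 had 8.32, 9.01 and 6.31. Mrc1, the mannose receptor gene, had 11.54, 12.33 and 9.96 and is also 1 of the macrophage markers above. For Met the closest genes were Zfp958 (0.06), Ptges2 (0.07) and Vps26a (0.07), and for Axl Mettl17 (0.05), Alg2 (0.07) and Eif4g3 (0.08), where Met and Axl varied by 0.30 and 0.27. Genes that vary as little as Met and Axl can be close by small variation alone.

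**Figure D3:**
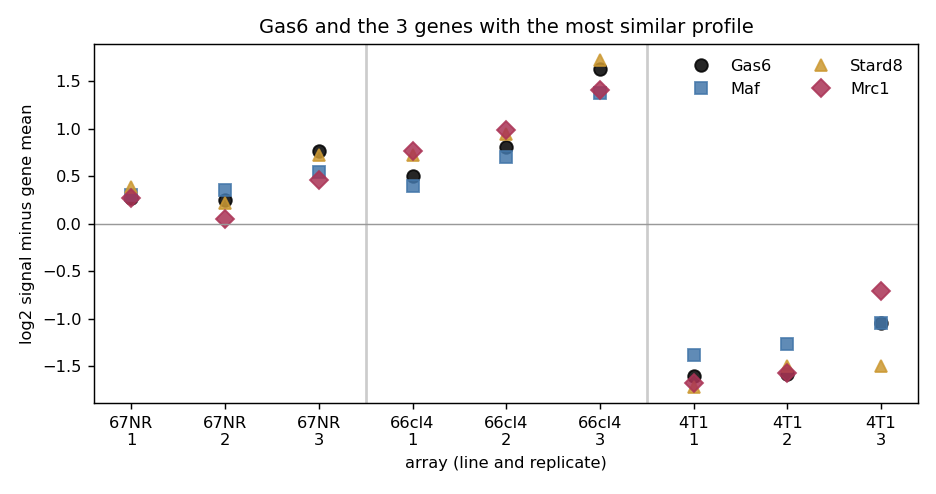
Log2 signal of Gas6, Maf, Stard8 and Mrc1 on each array (x axis, line and replicate), each minus its own mean over the 9 arrays (y axis). All 4 genes are below their mean on the 3 4T1 arrays and highest on 66cl4 replicate 3.

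Among these ligand activation genes of MET and RON, the protease gene St14 and the inhibitor genes Spint1 and Spint2 were far brighter in 4T1 tumours. The RON ligand gene was dimmer there. Of 14 listed genes, all measured, 8 were bright enough to be tested. In 4T1 against 67NR 5 of them rose and 1 fell (median 1.26). In 66cl4 against 67NR 1 rose and 2 fell (median 0.00), and in 4T1 against 66cl4 4 rose and 1 fell (median 0.83). The medians over all genes lay between -0.03 and 0.01. In this order, 75%, 37.5% and 62.5% of the tested list changed either way, against 39.9%, 36.1% and 41.3% of all genes. Untested members included Hgfac, the gene of HGF activator, which lay between 3.89 and 4.39 and was not above background on any array.

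Mst1, encoding macrophage-stimulating protein, had 5.32, 5.88 and 5.63 in 67NR, 4.87, 4.77 and 4.98 in 66cl4 and 4.45, 4.28 and 4.01 in 4T1 tumours. The lines did not overlap, which held for 49.7% to 52.5% of all genes per pair of lines. In 4T1, Mst1 was not above background on any array. Mst1 was at least 1.56-fold lower in 4T1 than in 67NR, a bound set against the highest bacterial control (limma adjusted p = 0.000125). In 66cl4 it was lower by -0.74 ± 0.16 (SE, limma adjusted p = 0.00555), with 2 of 3 arrays above background, a call that ended with the file number as covariate (-0.57, 0.0749).

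St14, the gene of matriptase, which cleaves the HGF precursor, had 5.85, 5.79 and 5.85 in 67NR, 5.28, 5.04 and 5.40 in 66cl4 and 9.94, 9.72 and 9.32 in 4T1 tumours. It was higher in 4T1 than in 66cl4 by 4.42 ± 0.16 (SE, limma adjusted p = 7.38e-08) and lower in 66cl4 than in 67NR by -0.59 ± 0.16 (0.0169), a call that ended with the file number (0.174) and without 66cl4 replicate 2 (0.066). Hpn, the gene of hepsin, another HGF-cleaving protease, lay between 5.07 and 5.73 on all arrays and passed no test. Spint1, encoding the matriptase inhibitor HAI-1, had 5.03, 4.91 and 4.87 in 67NR, 5.20, 5.33 and 4.51 in 66cl4 and 9.29, 9.15 and 9.04 in 4T1 tumours. It stood apart in 4T1 only, by 4.14 ± 0.19 over 66cl4 (limma adjusted p = 2.88e-07), with 2 of 3 arrays above background in each other line.

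Spint2, encoding the related inhibitor HAI-2, had 7.67, 7.37 and 7.60 in 67NR, 9.61, 9.32 and 8.87 in 66cl4 and 10.96, 10.72 and 11.32 in 4T1 tumours. It was higher in 66cl4 than in 67NR by 1.72 ± 0.20 (SE, limma adjusted p = 0.000182) and in 4T1 than in 66cl4 by 1.74 ± 0.20 (0.000131). Plat, the gene of tissue plasminogen activator, was higher in 4T1 than in 66cl4 by 1.46 ± 0.25 (0.00116). These genes rose beside the epithelial markers, of which 12 of 12 were higher in 4T1 than in 67NR (summed signal 662 to 722 in 67NR, 7621 to 9710 in 66cl4 and 31074 to 37631 in 4T1 arrays). Only 1 of the 12, Krt8, was higher and 1 lower in 66cl4 against 67NR (median 0.07), and Krt8 makes up most of the 66cl4 sum. The part of epithelial cell content in their difference was not tested.

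**Figure D4:**
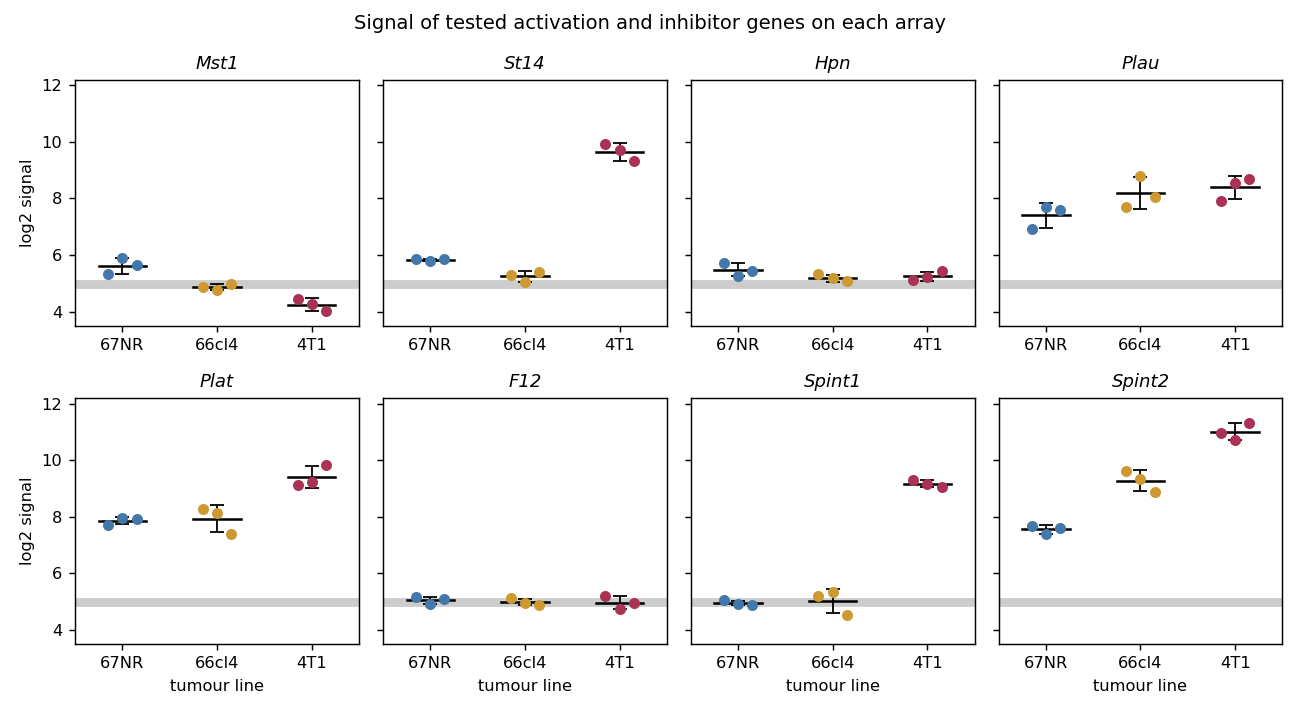
Log2 signal (y axis) of the 8 tested genes of ligand activation on each array by tumour line (x axis), with the mean (bar), SD (whiskers, 3 mice) and background range (grey band). St14 and Spint1 exceed 9 in 4T1 alone, and Mst1 falls below the band in 4T1.

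Genes of the TAM axis other than the members changed in both directions. Of 15 tested, 2 rose and 5 fell in 4T1 against 67NR (median -0.18), 2 rose and 6 fell in 4T1 against 66cl4 (median -0.32), and 2 rose and 1 fell in 66cl4 against 67NR (median 0.07). Of all genes, 20.5% fell in the first of these comparisons and 23.4% in the second. In the same order, 46.7%, 53.3% and 20% of the list changed either way, against 39.9%, 41.3% and 36.1% of all genes. The 7 calls of the first comparison were 3 without 67NR replicate 2 or 67NR replicate 3 and 4 without 4T1 replicate 1 or 4T1 replicate 3, and the 3 calls of the last were 5 without 67NR replicate 1. Pros1, encoding protein S, the second TAM ligand, had 8.24, 8.16 and 8.34 in 67NR, 8.01, 8.16 and 8.41 in 66cl4 and 7.27, 8.09 and 7.44 in 4T1 tumours. It was lower in 4T1 than in 67NR by -0.65 ± 0.20 (SE, limma adjusted p = 0.0268) and than in 66cl4 by -0.59 ± 0.20 (0.0379). These calls ended in 5 and 4 of 6 fits without 1 array. With the file number as covariate the Pros1 differences were -0.16 and -0.42 (0.734 and 0.127), and with the hybridization controls -0.07 and -0.27 (0.889 and 0.355). Mertk, the third TAM receptor, had 8.57, 7.46 and 7.22 in 67NR, 8.15, 8.08 and 7.80 in 66cl4 and 7.44, 7.37 and 7.03 in 4T1 tumours. 67NR replicate 1 stood above every other array. In the main fit Mertk passed no test, with -0.73 ± 0.30 in 4T1 against 66cl4 (0.0786). That difference passed with only these 2 lines in the fit (0.00889) and, at -1.21, with the hybridization controls as covariate (0.0178). Mertk in 66cl4 against 67NR was 0.67 without 67NR replicate 1, which passed (limma adjusted p = 0.0176), and -0.0067 without 67NR replicate 3 (0.99).

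The enzymes that let GAS6 and protein S mature were measured too. Vkorc1, which recycles vitamin K, had means of 8.90 ± 0.24, 10.46 ± 0.13 and 9.76 ± 0.34 in the order 67NR, 66cl4 and 4T1 (SD, n = 3). It was higher than in 67NR by 1.56 ± 0.18 in 66cl4 (SE, limma adjusted p = 0.000156) and by 0.86 ± 0.18 in 4T1 (0.00406). Ggcx, the gamma-carboxylase gene, was higher in 66cl4 than in 67NR by 0.73 ± 0.17 (0.00856) and lower in 4T1 than in 66cl4 by -0.77 ± 0.17 (0.00519). Both were thus highest in 66cl4 tumours. Yap1, whose product works with TEAD factors, was higher in 4T1 than in 67NR by 0.89 ± 0.11 (0.000233), and Twist1, a transcription factor gene of the mesenchymal state, was lower by -0.55 ± 0.13 (0.00628). Socs1, a cytokine signalling inhibitor that TAM receptors induce, was lower in 66cl4 than in 67NR by -0.80 ± 0.24 (limma adjusted p = 0.0252), a call that ended in 4 of 6 fits without 1 array. The Twist1 call ended with the file number as covariate (0.185), and those of Ggcx in 66cl4 (0.0531) and Socs1 (0.126) did as well. With the hybridization controls, Vkorc1 in 4T1 against 67NR (0.0526) and Ggcx in 4T1 against 66cl4 (0.0614) did not pass.

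Coreceptors, sheddases and phosphatases of MET and RON changed in both directions. Of 17 tested, 3 rose and 5 fell in 4T1 against 67NR (median -0.02). In 66cl4 against 67NR 2 rose and 6 fell (median -0.27), and in 4T1 against 66cl4 7 rose and 3 fell (median 0.12). In this order, 47.1%, 47.1% and 58.8% of the list changed either way, against 39.9%, 36.1% and 41.3% of all genes. Sema5a, a semaphorin gene, had 9.39, 10.24 and 9.81 in 67NR, 10.58, 10.59 and 10.70 in 66cl4 and 5.19, 5.35 and 5.69 in 4T1 tumours, and was lower in 4T1 than in 66cl4 by -5.21 ± 0.20 (SE, limma adjusted p = 1.07e-07). Itgb4, encoding the integrin chain that can serve MET as a signalling platform, had 5.63, 6.53 and 5.85 in 67NR, 8.51, 8.56 and 8.39 in 66cl4 and 10.18, 9.16 and 9.43 in 4T1 tumours. It was higher than in 67NR by 2.48 ± 0.28 in 66cl4 (limma adjusted p = 0.000126) and 3.59 ± 0.28 in 4T1 (9.18e-06).

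The plexin gene Plxnb1, whose product associates with MET and RON, was higher in 4T1 than in 67NR by 0.95 ± 0.16 (SE, limma adjusted p = 0.00137). Another Plxnb1 probe set had means of 4.34 in 67NR, below the background range, and 7.66 in 4T1. It differed by 3.32 (limma adjusted p over probe sets = 3.04e-06). Sema4d, the ligand gene of this plexin, was lower in 66cl4 than in 67NR by -1.02 ± 0.17 (limma adjusted p = 0.00111). It was higher in 4T1 than in 67NR by 0.83 ± 0.17 (0.00304). The other Sema4d probe set differed by -0.50 in 66cl4 against 67NR, which did not pass (limma adjusted p over probe sets = 0.0554). In 4T1 against 67NR it differed by 0.07 (0.80), and with the mean of both the difference was 0.32 and did not pass (0.0609). Ptprj, whose product dephosphorylates MET, was lower in 4T1 than in 67NR by -1.40 ± 0.13 (3.08e-05). Ptpn1 was lower than in 67NR by -0.60 ± 0.12 in 4T1 (0.00342) and -0.73 ± 0.12 in 66cl4 (0.0014). Another Ptpn1 probe set differed by -0.23 in 4T1, which did not pass (limma adjusted p over probe sets = 0.229), and by -0.56 in 66cl4 (0.0123). Timp3, an inhibitor of sheddases, had 10.86, 9.82 and 9.27 in 67NR, 7.25, 7.34 and 7.58 in 66cl4 and 7.89, 10.03 and 9.82 in 4T1 tumours, and was lower in 66cl4 than in 67NR by -2.60 ± 0.54 (0.00454). The differences of Plxnb1 (limma adjusted p = 0.146), Sema4d (0.0776) and Ptpn1 (0.104) in 4T1 against 67NR did not pass with the file number as covariate. These fits used the brightest probe set of each gene.

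Adaptors that couple these receptors to RAS and PI3 kinase differed by smaller amounts. Of 25 tested, 3 rose and 5 fell in 4T1 against 67NR (median -0.09). In 66cl4 against 67NR 7 rose and 6 fell (median 0.04), and in 4T1 against 66cl4 4 rose and 8 fell (median -0.05). In this order, 32%, 52% and 48% of the list changed either way, against 39.9%, 36.1% and 41.3% of all genes. Gab1, the main docking adaptor of MET, had 8.05, 7.92 and 7.72 in 67NR, 8.48, 8.34 and 8.64 in 66cl4 and 6.92, 7.11 and 6.92 in 4T1 tumours. The lines did not overlap, which held for 49.7% to 52.5% of all genes per pair of lines. Gab1 was lower in 4T1 than in 66cl4 by -1.50 ± 0.12 (SE, limma adjusted p = 1.36e-05) and than in 67NR by -0.91 ± 0.12 (0.000332). Grb2, the adaptor that links receptors to SOS, was highest in 66cl4 and lowest in 4T1 as well, with -0.73 ± 0.09 between them (0.000136).

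Nck1, an adaptor gene of actin signalling, was higher in 66cl4 than in 67NR by 1.07 ± 0.14 (SE, limma adjusted p = 0.000277), and Crkl by 0.48 ± 0.10 (0.00412). Other tested probe sets differed there by 0.43 for Nck1 (limma adjusted p over probe sets = 0.072) and by 0.0028 and 0.33 for Crkl (0.989 and 0.0985). Ptpn11, the gene of the phosphatase SHP2 that binds GAB1, was higher in 4T1 than in 67NR by 0.67 ± 0.10 (limma adjusted p = 0.000577). Other tested Ptpn11 probe sets differed by -0.14 and 0.23 in that comparison and did not pass (limma adjusted p over probe sets = 0.48 and 0.262). Sh3kbp1, whose product takes part in receptor endocytosis with CBL, was lower in 4T1 by -1.08 ± 0.12 (7.15e-05), and Rapgef1, an exchange factor gene downstream of CRK, by -0.64 ± 0.13 (0.00335). Grb10 was lower in 66cl4 than in 67NR by -1.12 ± 0.19 (0.00134), and Ranbp10 was higher by 0.54 ± 0.10 (0.00184). The Rapgef1 call in 4T1 ended with the file number as covariate (limma adjusted p = 0.205).

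Targets and feedback genes of the ERK pathway, to which these and other receptors signal, changed in both directions. Of 19 tested, 3 rose and 7 fell in 66cl4 against 67NR (median -0.24, where 20% of all genes rose and 16% fell), 4 rose and 3 fell in 4T1 against 67NR (median 0.13), and 7 rose and 2 fell in 4T1 against 66cl4 (median 0.18). In this order, 52.6%, 36.8% and 47.4% of the list changed either way, against 36.1%, 39.9% and 41.3% of all genes. Without 67NR replicate 3 the 10 calls in 66cl4 against 67NR were 6 and the 7 in 4T1 against 67NR were 4. Dusp4, a phosphatase gene induced by ERK, had 7.91, 8.57 and 8.16 in 67NR, 5.66, 6.91 and 5.54 in 66cl4 and 9.23, 9.05 and 9.38 in 4T1 tumours. Dusp4 was lower in 66cl4 than in 67NR by -2.18 ± 0.33 (SE, limma adjusted p = 0.000694), as were Dusp6 by -0.60 ± 0.16 (0.0158) and Dusp5, also a phosphatase gene of this family, by -0.91 ± 0.16 (0.00144). The Dusp6 call ended without 67NR replicate 3 (limma adjusted p = 0.0605) or 66cl4 replicate 3 (0.0573). Etv4, an ETS factor gene, was lower in 66cl4 than in 67NR by -1.32 ± 0.23 (0.00166), and Spry4, a feedback inhibitor gene, by -1.05 ± 0.12 (0.000161). Another Etv4 probe set differed by -0.73 and did not pass (limma adjusted p over probe sets = 0.0869).

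Spry1, a relative of Spry4, had 12.33, 11.61 and 11.90 in 66cl4 tumours and 10.48, 8.98 and 8.79 in 4T1 tumours, against a 67NR mean of 8.24 ± 0.35 (SD, n = 3). It was higher in 66cl4 than in 67NR by 3.71 ± 0.40 (SE, limma adjusted p = 0.000103). Spry2 and Etv5 passed no test in any comparison. Ereg, an EGF family ligand gene, had 8.61, 9.37 and 9.51 in 67NR and was not above background on any array of the other lines. It was at least 19.1-fold lower in 66cl4 and at least 18.3-fold lower in 4T1 (limma adjusted p = 8.76e-07 and 6.71e-07). Ier3, an immediate early gene, was higher in 4T1 than in 67NR by 0.93 ± 0.21 (limma adjusted p = 0.00653) and Epha2, a receptor tyrosine kinase gene, by 0.77 ± 0.21 (0.0141). Neither passed with the hybridization controls as covariate (limma adjusted p = 0.0686 and 0.172).

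**Figure D5:**
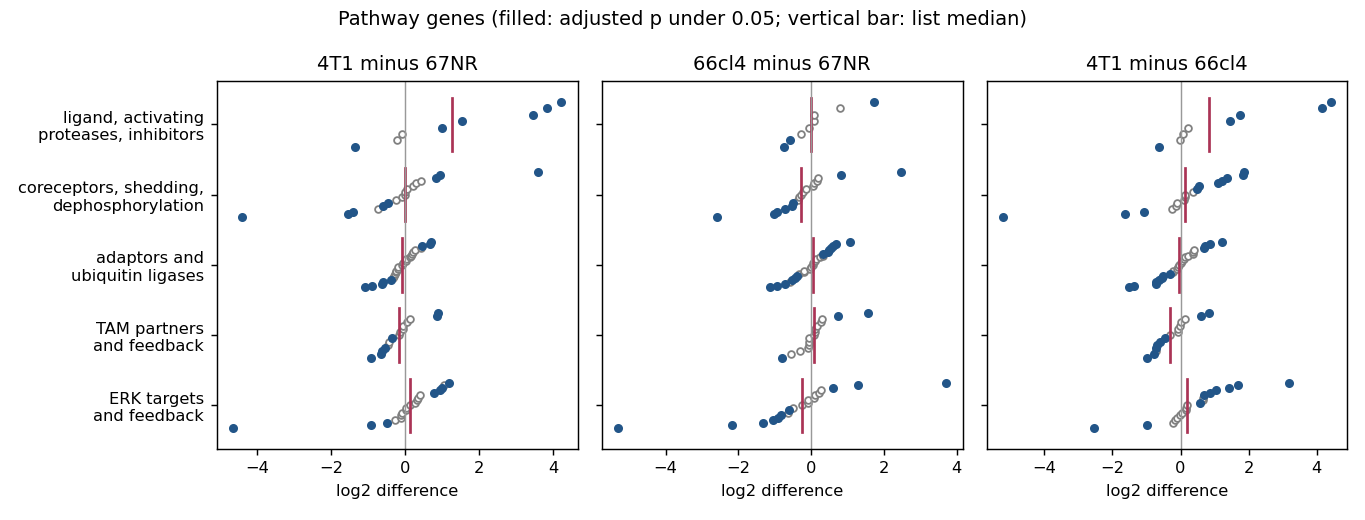
Log2 difference (x axis) of every tested gene of the 5 pathway lists (rows) in each pair of tumour lines, filled where the limma adjusted p is under 0.05, with the list median as a vertical bar. The highest difference of the ligand activation row is 4.22 in 4T1 against 67NR, and that of the ERK row is 3.71 in 66cl4 against 67NR. Ereg, in the ERK row, lies far to the negative side in both comparisons with 67NR.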

How the data were processed

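Tumour RNA of 9 mice, 3 per line, was measured on Affymetrix arrays, 1 per mouse. The values are on the log2 scale as deposited, judged from their range (2.42 to 14.80), and were used unchanged. Summarisation and normalisation of the probes by the authors are not given in the sources used here. Precision rests on the number of arrays. Of 45037 probe sets other than 64 array controls, 34945 were annotated to 1 gene, 932 to several and 9160 were unnamed here, and 34741 were matched by Entrez identifier to RefSeq GRCm38.p6 symbols.

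Each gene was read from its probe set with the highest mean, and was tested if at least 3 arrays had it over their 40th percentile. Lines were compared two-sided with limma 3.58.1 under R 4.3.3 (6 residual and 3.63 prior degrees of freedom over all 9 arrays), with Benjamini-Hochberg adjustment over 13409 genes or 28223 probe sets. The fit was tested on simulated data. With 3 mice against 3, an exact permutation test cannot go below 0.1. Background was the highest of 27 bacterial control probe sets on each array, and a fold bound sets the brighter mean against the mean of that control in the dimmer line. Named genes were the 6 members, fixed partners, up to 4 called genes with the smallest p per list and comparison, the 3 most similar genes of members past the F-test, and fixed markers. Fosl1 stands on 2 lists. Alternatives were another probe set rule, no filter, quantile or median scaling, a variance trend, a replicate block, 2 covariates, 2 lines alone and leaving out each array. The members and lists were chosen with earlier results of these data known.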

Additional observations from a re-analysis of the deposited data

How the results depend on the processing

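Covariates moved most. With the file number as covariate, the difference in 4T1 against 67NR was -0.25 for Met, -0.000615 for Hgf and -1.49 for Gas6, that in 66cl4 against 67NR was -0.34 for Met, -0.16 for Hgf and 0.0257 for Mst1r, and that in 4T1 against 66cl4 was 0.0847 for Met, -0.37 for Axl and 0.40 for Tyro3. It left 2661 of 5347 genes called in 4T1 against 67NR, with 0 members, 3 coreceptor, 4 adaptor, 3 TAM and 2 ERK genes. In 66cl4 against 67NR it left 1 member, 1 ligand activation and 6 adaptor genes, and in 4T1 against 66cl4 1 member. With the hybridization controls, 4T1 against 67NR gave -0.31 for Met, -0.10 for Axl and -1.16 for Gas6, 66cl4 against 67NR -0.0412 for Hgf and 0.0229 for Mst1r, and 4T1 against 66cl4 0.13 for Met and 0.53 for Tyro3. It left 2151 genes called in 4T1 against 67NR, with 0 members, 5 coreceptor, 4 adaptor, 1 TAM and 1 ERK gene, and 4 TAM genes in 4T1 against 66cl4. Other genes that changed sign did so without a call. With the file number these were Dusp6 (-0.00169), Etv5 (0.0237) and Dusp5 (-0.0191) in 4T1 against 67NR, Spint1 (-0.0767), Pros1 (0.26), Plat (-0.456) and Ptpn11 (0.0945) in 66cl4 against 67NR, and Hpn (-0.0541) in 4T1 against 66cl4. With the controls they were Etv5 (0.213) and Ggcx (0.374), then Spint1 (-0.108), Mertk (-0.11), Pros1 (0.197), Plat (-0.0836) and Ptpn11 (0.0513), and Hpn (-0.0834) and Rapgef1 (0.00695), in the same order of comparisons. Spry2 in 4T1 against 66cl4 was 0.0171 with the mean of probe sets and 0.0295 after quantile normalization.

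The mean of probe sets brought Tyro3 in 4T1 against 67NR to 0.55, and the fit of 2 lines alone called Hgf there (0.32) and no longer Axl in 4T1 against 66cl4 (-0.37), which was also lost with no filter (-0.37). Tyro3 in 4T1 against 66cl4 was 0.40 after quantile normalization and after median centring, both past the threshold no more. Replicate numbers did not pair the samples (correlations of deviations -0.115 to 0.159), and the fit with the replicate block called Gas6 in 66cl4 against 67NR (0.55) and Mertk in 4T1 against 66cl4 (adjusted p = 0.0319), and changed no other call of the 6 members.

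Leaving out 1 array gave, in 4T1 against 67NR, -0.28 to 0.0582 for Spry2, -0.33 to 0.13 for Etv5, -0.17 to 0.15 for Ggcx, -0.21 to 0.24 for Socs1 and -0.00122 to 0.28 for Dusp5, with 3 to 5 TAM and 4 to 6 ERK genes called. In 66cl4 against 67NR it gave -0.10 to 0.14 for Hgf, -0.10 to 0.00574 for Mst1r, -0.0838 to 0.32 for Spint1, -0.00671 to 0.67 for Mertk, -0.16 to 0.0372 for Pros1, -0.0985 to 0.35 for Plat and -0.0841 to 0.0205 for Ptpn11, with 2 to 5 TAM and 6 to 10 ERK genes called. In 4T1 against 66cl4 it gave -0.17 to 0.0260 for Met, 0.18 to 0.42 for Hgf, 0.13 to 0.50 for Mst1r, -0.47 to -0.29 for Axl, 0.37 to 0.47 for Tyro3, -0.0276 to 0.14 for Hpn, -0.18 to 0.16 for Spry2 and -0.15 to 0.00471 for Rapgef1, with 1 to 3 members called. The calls of Met and Gas6 in 4T1 against 67NR, Met and Axl in 66cl4 against 67NR and Gas6 in 4T1 against 66cl4 held in 6 of 6 such fits. The covariate fits against 67NR cannot tell line from file number, whose values did not overlap with those of the other lines. The same holds for the hybridization controls in 4T1 against 67NR. The cause of the changes under these settings was not tested.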
